A study of Mus musculus with 25 samples.

Results

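A set of 10 genes of phospholipid and arachidonate metabolism was followed through muscle injury and in cultured macrophages: Pla2g4a, Pla2g6, Pla2g7, Pla2g12a, Pla2g15, Pla2g2d, Daglb, Mgll, Lpcat1 and Lpcat2. They were chosen by name, and all 10 were found as 1 row each among the 38087 genes of both expression tables. In muscle, the acyltransferases Lpcat1 and Lpcat2 were higher at day 4 than at day 2 in both macrophage subsets. Pla2g7 was higher at day 4 in the Ly6Clow subset. In cultured macrophages given resolvin D2 (RvD2), none of the 9 genes that could be tested passed the test for a difference, at a background of 1.86% of all genes.

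Phospholipases A2 cut the fatty acid from the middle position of a membrane phospholipid, and when that fatty acid is arachidonate it becomes the substrate for prostaglandin and leukotriene synthesis. The lysophospholipid that remains can be acylated again, or, in its ether-linked form, acetylated to platelet-activating factor (PAF), a lipid that activates leukocytes and platelets through a receptor. Arachidonate is also freed by a second route, from diacylglycerol through the endocannabinoid 2-arachidonoylglycerol, and macrophages and neutrophils are known as major sources of all these mediators in injured tissue.

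All cells came from C57BL/6J mice. In adult males aged 2 to 4 months the tibialis anterior, a shin muscle, was injected with cardiotoxin (CTX), a membrane-damaging venom toxin used to destroy fibres, and CD45+ leukocytes were isolated on magnetic beads and sorted by flow cytometry. The groups were Ly6Chigh F4/80low macrophages at day 2 (3 samples) and day 4 (2 samples), Ly6Clow F4/80high macrophages at day 2 (3 samples) and day 4 (2 samples), and Ly6Ghigh F4/80- neutrophils at day 1 (3 samples). Bone marrow-derived macrophages (BMDM), grown from male marrow with the growth factor M-CSF and then held without it, were left untreated (3 samples) or given 10 nM RvD2 for 4 h (3 samples). RvD2 is a lipid mediator made from docosahexaenoic acid. Another 2 groups of 3 samples (Ly6Chigh cells at day 1 and circulating monocytes) were not analysed here. The series title places the data in a study of lipid mediators and macrophage subset transitions in muscle regeneration.

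The muscle values were the authors' means of log2 normalised read counts over the samples of a group, so they carry no spread between samples and no test was possible. The BMDM values were given library by library, at an estimated 9.05 to 14.3 M gene reads. Level below means the normalised count obtained from the log2 value. All 10 macrophage markers examined, such as Csf1r and Adgre1, reached a level of 50 in every macrophage group. Of 11 neutrophil markers, Ngp, Camp and Ly6g, the neutrophil sort antigen, were listed at 0 in all 4 of them. Between 3 (Ly6Clow cells at day 4) and 6 (Ly6Clow cells at day 2) of the 11 reached 50, among them Csf3r at a log2 level of 10.36 to 11.40. Other markers differed between macrophage groups. The summed level of 11 fibroblast markers was 286 and 103 in Ly6Chigh and Ly6Clow cells at day 2, and 26369 and 2181 at day 4. The sum of 11 dendritic cell markers was 4128 and 4722 at day 2, and 12137 and 11912 at day 4. In these bulk samples, fewer cells of a type and less RNA per cell cannot be told apart.

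Promoter sequence is shown for the 2 acyltransferases, which were higher at day 4 in both subsets, and for Pla2g2d, the member nearest to silence. RefSeq sequences on GRCm38.p6 were matched by symbol for all 10 genes, and only bases before the transcript start that lie outside annotated exons are printed, 5′ to 3′ on the gene's strand. Capitals mark the motif found in the printed bases: the GC box GGGCGG in Lpcat1 and Pla2g2d, and the TATA box TATAAA, read on the other strand, in Lpcat2. The windows are chr8:92855083-92855223 (plus strand) for Lpcat2, chr13:73466981-73467196 (plus strand) for Lpcat1 and chr4:138775485-138775734 (plus strand) for Pla2g2d.
Lpcat2: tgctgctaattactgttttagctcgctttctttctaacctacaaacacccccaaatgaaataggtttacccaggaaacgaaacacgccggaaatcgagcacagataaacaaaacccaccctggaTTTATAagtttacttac
Lpcat1: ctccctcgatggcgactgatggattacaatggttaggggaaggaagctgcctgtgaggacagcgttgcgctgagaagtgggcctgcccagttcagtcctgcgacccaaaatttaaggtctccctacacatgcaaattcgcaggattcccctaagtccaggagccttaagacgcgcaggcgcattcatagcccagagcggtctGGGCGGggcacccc
Pla2g2d: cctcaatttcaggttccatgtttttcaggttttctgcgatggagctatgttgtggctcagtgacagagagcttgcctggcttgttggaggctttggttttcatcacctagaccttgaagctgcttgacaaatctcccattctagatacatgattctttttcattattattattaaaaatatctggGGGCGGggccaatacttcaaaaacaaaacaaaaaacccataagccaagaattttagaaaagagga
Searched on both strands in the full 250 bases before the start, part of which is not printed, a GC box stands before Lpcat1, Lpcat2, Pla2g2d, Pla2g6, Pla2g7, Pla2g15 and 1 of the 2 listed starts of Mgll. Over all mouse genes the GC box stands in 32.7% of 32851 promoters and the TATA box in 12.4%. The other motifs searched were the PU.1 core GAGGAA (23.3% of promoters), the AP-1 site TGANTCA (6.75%), the cAMP response element TGACGTCA (1.55%) and the E-box CACGTG (6.02%). None of these other motifs was found before Lpcat1, Lpcat2 or Pla2g2d. The PU.1 core stands before Pla2g12a and Daglb, the E-box before the other start of Mgll, and a TATA box before 1 of the 2 listed starts of Pla2g4a. The window of Pla2g12a (chr3:129880934-129881183, plus strand) lies inside the annotated gene, which begins at 129878606. That of the Pla2g4a start with the TATA box also lies inside its gene. No match of the AP-1 site or the cAMP response element was found before any member. The windows of Lpcat1, Lpcat2 and Pla2g2d hold 60.8%, 51.2% and 39.6% G and C over the full 250 bases, against a median of 52.4% over all promoters.

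Lpcat2 makes PAF, by acetylating the ether-linked lysophospholipid, and can also put other acyl chains on lysophosphatidylcholine. An antisense transcript, Gm45472, covers 287 bases of its exons and was not analysed here. The gene (ENSMUSG00000033192) lies at chr8:92855339-92919279 on mm10. Its log2 level was 9.66 in Ly6Chigh cells at day 2 and 11.31 at day 4, 8.97 in Ly6Clow cells at day 2 and 11.79 at day 4, and 12.96 in neutrophils at day 1. Both macrophage subsets were thus higher at day 4 than at day 2. In the values as deposited, neutrophils were above all 4 macrophage groups. As levels, Ly6Clow cells went from 503 to 3539 and Ly6Chigh cells from 808 to 2535. For ratios in muscle, 10 was added to both levels, and a gene was counted as called when it differed at least 2-fold on that scale and the higher group reached 50. On that scale Lpcat2 was 6.92-fold higher at day 4 in Ly6Clow cells (log2 ratio 2.79) and 3.11-fold higher in Ly6Chigh cells (log2 ratio 1.64).

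Lpcat1 restores phosphatidylcholine, above all with saturated chains, and can form PAF without an inflammatory stimulus. It lies at chr13:73467197-73516422. The log2 level was 8.52 in Ly6Chigh cells at day 2 and 9.63 at day 4, 8.81 and 9.91 in Ly6Clow cells, and 7.37 in neutrophils. Here too both subsets were higher at day 4, while neutrophils were below every macrophage group. The day ratio was nearly the same in the 2 subsets, 2.13-fold in Ly6Chigh cells (log2 ratio 1.09) and 2.11-fold in Ly6Clow cells (log2 ratio 1.08).

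Pla2g7 encodes the secreted PAF acetylhydrolase, which removes the acetyl group of PAF and so inactivates it. It lies at chr17:43568098-43612201. Its log2 level was 12.82 in Ly6Chigh cells at day 2 and 12.69 at day 4, 12.02 and 13.05 in Ly6Clow cells, and 13.70 in neutrophils. In the values as deposited, the lowest group was Ly6Clow cells at day 2 and the highest was neutrophils. Between day 2 and day 4 it was 2.03-fold higher in Ly6Clow cells (levels of 4159 and 8467, log2 ratio 1.02), close to the 2-fold limit, whereas in Ly6Chigh cells the log2 ratio was -0.13. Exons of Pla2g7 share 319 bases with an antisense transcript, 1700071M16Rik, whose log2 level was 5.01 to 8.97 in the same groups and stood in the same order over the groups. No strand-marking step is described for the kit, and reads of the shared bases cannot be assigned to 1 gene.

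By day, then, 2 of the 8 members reaching a level of 50 were called in Ly6Chigh cells, against 13.4% of all genes reaching that level (9.67% higher and 3.74% lower at day 4). In Ly6Clow cells 3 of 8 were called, against 11.3% (8.08% higher, 3.24% lower). The median log2 ratio of the 8 was 0.14 in Ly6Chigh and 0.63 in Ly6Clow cells, beside -0.01 over all genes in both. Beside these day differences stand the marker sums: in Ly6Chigh cells those of fibroblasts and dendritic cells were both higher at day 4, and in Ly6Clow cells likewise. Of the 11 dendritic markers, those reaching a level of 50 went from 3 to 10 in Ly6Chigh cells and stayed at 3 in Ly6Clow cells, where the sum was made up almost wholly of Bst2 (3322 and 5903 at days 2 and 4), Itgax (656 and 4670) and Tcf4 (700 and 1168). Their part in the Lpcat1, Lpcat2 and Pla2g7 differences was not tested.

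**Figure D1:**
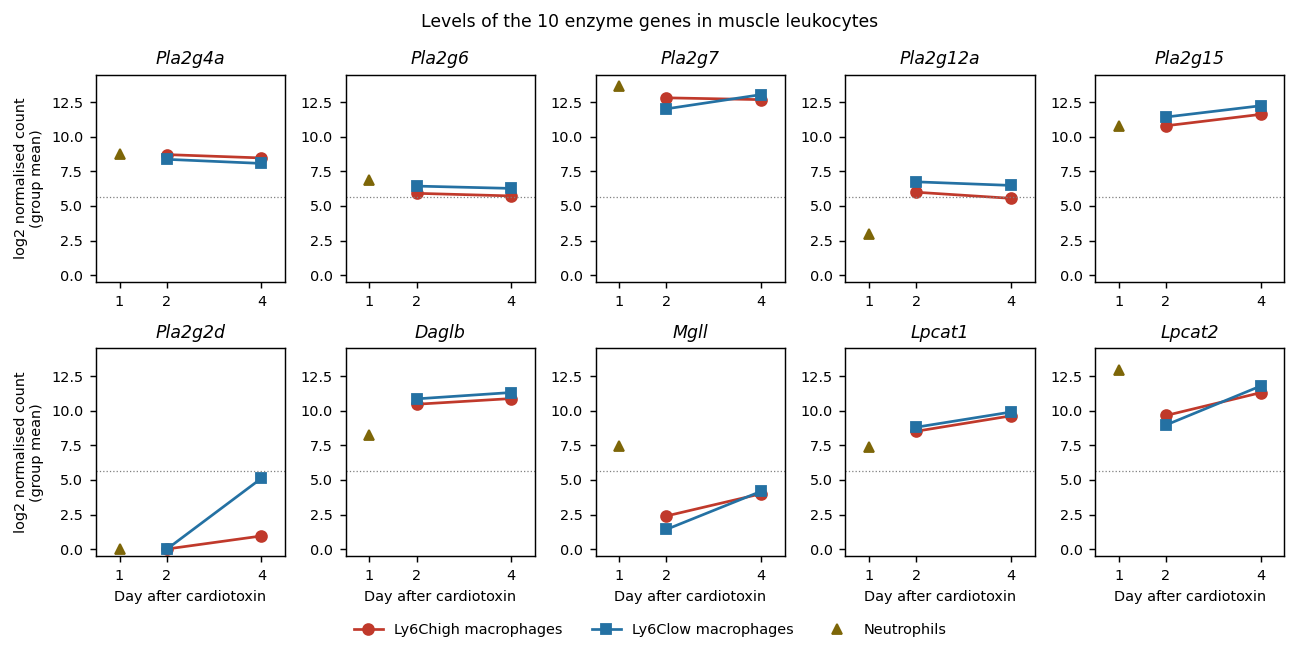
Log2 normalised count of each of the 10 genes (vertical axis, the authors' group means) by day after cardiotoxin (horizontal axis), with circles for Ly6Chigh macrophages, squares for Ly6Clow macrophages and triangles for neutrophils; the dotted line is a level of 50. Lpcat1 and Lpcat2 lie higher at day 4 in both subsets, and the lines of Pla2g7 and Lpcat2 cross between days.

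Between the subsets at a given day, none (0) of the 8 members was called at day 2, where 11.4% of all genes were (5.9% higher and 5.46% lower in Ly6Clow cells), and none (0) at day 4, where 7.21% were (2.98% higher, 4.22% lower). With 8 members, a count of 0 is near these shares. In direction, 5 of 8 members were above 0 in Ly6Clow cells at day 2 and 7 of 8 at day 4, with medians of 0.34 and 0.45 beside 0.00 and 0.01 for all genes. Pla2g7 and Lpcat2 stood apart in this. Their log2 ratios of Ly6Clow to Ly6Chigh cells were -0.79 and -0.67 at day 2 and 0.36 and 0.48 at day 4. Both shifted by 1.15 between days, in the same direction, and the other 6 shifted by -0.05 to 0.14. A shift of 1 or more was seen for 1.93% of the 10990 genes that could be compared, and a shift of -1 or below for 2.15%. With 1 mean per group, this shift has no replicate check.

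**Figure D2:**
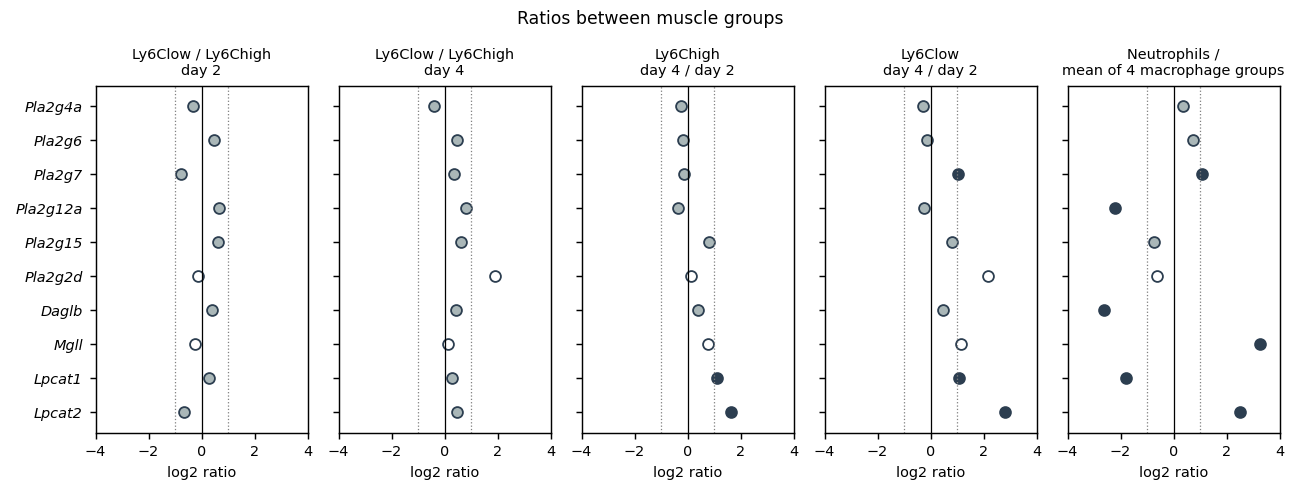
Log2 ratio between groups (horizontal axis, 10 added to both levels) of each gene in 5 comparisons; filled dark points are called, grey points are not, open points did not reach a level of 50, and dotted lines mark 2-fold. No point is dark in the 2 subset comparisons, and Lpcat1 and Lpcat2 are dark in both day comparisons.

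Among the phospholipases A2 that act inside the cell, Pla2g15, the lysosomal enzyme, varied with both subset and day without passing 2-fold. It lies at chr8:106150399-106164715. The log2 level was 10.80 in Ly6Chigh cells at day 2 and 11.62 at day 4, 11.43 and 12.24 in Ly6Clow cells, and 10.76 in neutrophils. Ly6Clow cells at day 4 were highest, and neutrophils and Ly6Chigh cells at day 2 were lowest and nearly level with each other. The ratio of Ly6Clow to Ly6Chigh cells was 1.55-fold at day 2 and 1.54-fold at day 4, and that of day 4 to day 2 was 1.76-fold in Ly6Chigh and 1.75-fold in Ly6Clow cells.

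Pla2g4a is the cytosolic, calcium-dependent phospholipase A2 that favours arachidonate and is regarded as the main enzyme feeding eicosanoid synthesis. It lies at chr1:149829618-149961290. The log2 level was 8.71 in Ly6Chigh cells at day 2 and 8.47 at day 4, 8.37 and 8.08 in Ly6Clow cells, and 8.76 in neutrophils. It varied least of the 10, with a range of 0.68 over the 5 groups, and it was the only member whose ratio was below 0 in all 4 macrophage comparisons, at -0.24 to -0.38.

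Pla2g6, the calcium-independent enzyme, known for membrane remodelling, had a low level in all groups. The log2 values were 5.92 and 5.73 in Ly6Chigh cells at days 2 and 4, 6.44 and 6.27 in Ly6Clow cells, and 6.89 in neutrophils. Ly6Clow cells were above Ly6Chigh cells at both days, by 1.37-fold and 1.38-fold, which is below the 2-fold limit.

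Of the secreted enzymes, Pla2g12a showed the same order of subsets as Pla2g6, with log2 levels of 5.99 and 5.55 in Ly6Chigh cells at days 2 and 4, 6.75 and 6.49 in Ly6Clow cells, and 3.01 in neutrophils. Neutrophils were clearly the lowest, and the subset ratio was 1.59-fold at day 2 and 1.75-fold at day 4. Pla2g2d, a secreted enzyme known from lymphoid tissue, did not reach a level of 50 in any group. Its log2 value was 0 in Ly6Clow cells at day 2 and in neutrophils, 0.01 in Ly6Chigh cells at day 2, 0.95 in Ly6Chigh cells at day 4 and 5.12 in Ly6Clow cells at day 4. That last group, at a level of 34.8, was the only one well above 0. It is a mean over 2 samples, and a group mean does not show whether both carried the transcript.

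On the diacylglycerol route, Daglb makes 2-arachidonoylglycerol and Mgll hydrolyses it to arachidonate and glycerol. Daglb lies at chr5:143464584-143505942. Its log2 level was 10.47 and 10.88 in Ly6Chigh cells at days 2 and 4, 10.86 and 11.32 in Ly6Clow cells, and 8.22 in neutrophils. All macrophage groups lay close together and well above neutrophils. This gene shares 2309 exon bases, 24.1% of its exon length, with Rac1 on the opposite strand, whose log2 level was 12.20 to 12.53 in all 5 groups, and without strand reads of those bases cannot be told apart. Mgll lies at chr6:88724412-88828360. The log2 level was 2.40 and 4.00 in Ly6Chigh cells at days 2 and 4, 1.43 and 4.18 in Ly6Clow cells, and 7.44 in neutrophils. No macrophage group reached a level of 50; the highest stood at 18.1, and neutrophils at 173. An antisense transcript, Gm26588, shares 167 of its exon bases and was listed at a log2 level of at most 0.43.

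Neutrophils at day 1 differed from the mean of the 4 macrophage groups in 6 of the 9 members that could be compared, at a background of 59.5% of all genes, so the share of members is near that of genes at large. Called higher were Mgll (9.45-fold), Lpcat2 (5.73-fold) and Pla2g7 (2.08-fold), where 30.7% of genes were called higher. Called lower were Daglb (6.17-fold), Pla2g12a (4.64-fold) and Lpcat1 (3.46-fold), where 28.9% of genes were. The 2 PAF-forming acyltransferases thus had opposite directions in neutrophils. Pla2g4a, Pla2g6 and Pla2g15 stayed within 2-fold, with log2 ratios of 0.34, 0.72 and -0.76.

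The direction of the smaller neutrophil ratios depended on scale. The normalised counts summed to 26.0 M in neutrophils and to 11.9 to 12.8 M in the macrophage groups, and setting the sums equal moved the median of all genes from 0.10 to -1.02 on the log2 scale. On that scale 1684 genes were called higher and 6042 lower, in place of 3704 and 3488. Against the mean of the 4 macrophage groups, Mgll (log2 ratio 2.38) and Lpcat2 (1.46) were still called higher, and Daglb (-3.65), Lpcat1 (-2.79) and Pla2g12a (-2.76) lower. Pla2g7 came to -0.003 and was no longer called, Pla2g15 came to -1.81 and was called lower, and Pla2g4a (-0.69) and Pla2g6 (-0.23) turned from above to below 0. Single macrophage groups were not compared with sums set equal. In the values as deposited, the log2 ratio of Lpcat2 in neutrophils was 1.65 to Ly6Chigh and 1.17 to Ly6Clow cells at day 4. Whether Lpcat2 stays above these 2 groups with sums set equal is therefore not shown. The neutrophils also differ from the macrophages in day, which cannot be told apart from cell type. The summed level of 11 neutrophil markers was 422447 in neutrophils and 2377 to 3058 in the macrophage groups, while that of the 10 macrophage markers was 101393 in neutrophils and 228450 to 368454 in macrophages. Their part in the member ratios was not tested.

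Divided by exon length, which allows levels of different genes to be compared, Pla2g7 was the most abundant member in all 5 muscle groups. It stood at 2483 and 2269 normalised counts per kb in Ly6Chigh cells at days 2 and 4, 1432 and 2915 in Ly6Clow cells, and 4595 in neutrophils, which was 47.4 to 68.3% of the sum over the 10 genes. Pla2g15 came second in the 4 macrophage groups, at 591 to 1610 per kb. In neutrophils Lpcat2 came second, with 2356 per kb or 30.5% of the sum. Among the intracellular enzymes, Pla2g4a stood at 42.2 to 67.7 per kb and Pla2g6 at 9.75 to 21.8. In untreated BMDM the order was another: Pla2g15 came first at 647 per kb (48.0% of the sum) and Pla2g7 second at 188 (13.9%). The 2 tables were normalised separately, so only the order within each is compared.

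**Figure D3:**
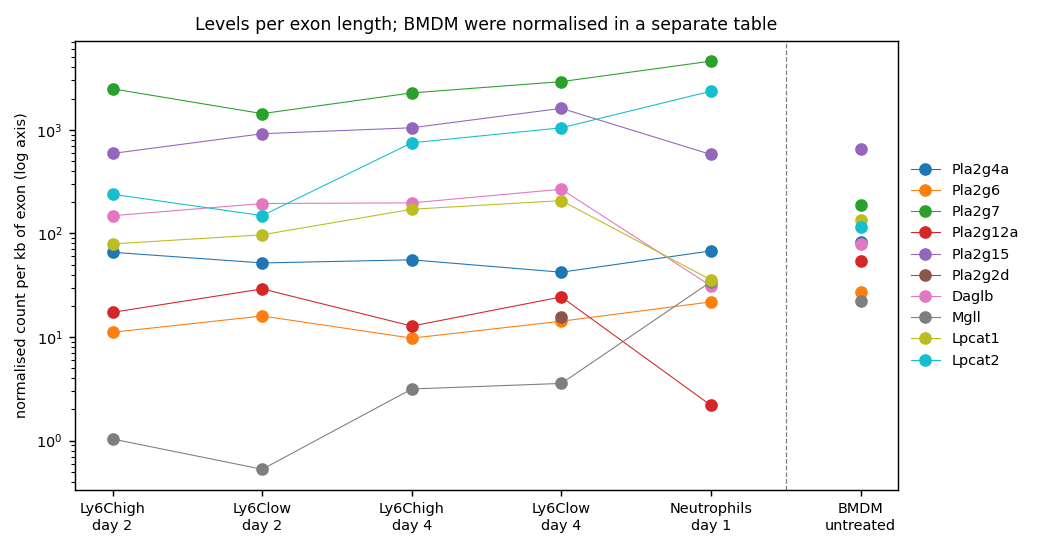
Normalised count per kb of exon (log axis) of each gene in the 5 muscle groups and in untreated BMDM, where points are group means and values under 2 normalised counts are left out. Pla2g7 is the top line in all 5 muscle groups, and Pla2g15 is the top point in BMDM.

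The genes whose profile over the 5 muscle groups was nearest to each member, by Euclidean distance between centred log2(level + 10) values, were found among 12828 genes. Those nearest to Lpcat2 were Itgad (distance 0.30) and Itgax (0.34), both integrin alpha subunits, the second of which is the CD11c antigen. Nearest to Lpcat1 were Chd3 (0.15) and Sgpp1 (0.23), and to Pla2g15 Pxmp4 (0.15) and Nudt16 (0.23). Zfp36l1 (0.21) was nearest to Pla2g7, Plcxd1 (0.09) to Pla2g4a, Gys1 (0.08) to Pla2g6, Vdac1 (0.22) to Pla2g12a and Thtpa (0.18) to Daglb. The second genes were the pseudogene Gm14556 (0.25) for Pla2g7, the pseudogene Gm12952 (0.10) for Pla2g4a, Igsf8 (0.23) for Pla2g12a and Zbtb12 (0.19) for Daglb. For Mgll they were a U1 small nuclear RNA gene (0.12) and Marveld2 (0.26). With 5 points per profile, and neutrophils set apart from the rest in many of them, these are descriptions only.

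In BMDM, RvD2 at 10 nM for 4 h was compared with no treatment by limma, with p-values adjusted over all 15239 genes tested. None (0) of the 9 members tested was called at an adjusted p of 0.05, and none at an unadjusted p of 0.05, where 1.86% (0.794% higher and 1.06% lower with RvD2) and 15.6% of all genes were. The 3 treated and 3 untreated libraries overlapped for all 9, while 21% of genes had groups that did not overlap. Pla2g2d was listed at 0 in all 6 libraries and was not tested. Over these libraries the 10 macrophage markers summed to 104650 to 137346, and the 11 fibroblast markers to 52163 to 77553. The 11 neutrophil markers summed to 4865 to 15750. The part of other cell types in the BMDM values was not tested.

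The largest difference was that of Daglb. Its log2 level was 9.30, 9.72 and 9.61 in untreated and 9.68, 9.80 and 9.88 in treated libraries. Most treated values lay above the untreated ones, but the lowest treated library was below the highest untreated one. The difference was 0.24 ± 0.11 (SE, n = 3 per group) by limma, with an adjusted p of 0.327 and a 95% interval from -0.003 to 0.48. Pla2g4a had log2 levels of 9.07, 9.06 and 9.001 without and 8.77, 9.09 and 8.71 with RvD2. Here 2 treated libraries were below all untreated ones and the third was above them, and the difference was -0.19 ± 0.10 (SE; limma, adjusted p = 0.424).

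The PAF-forming enzymes did not separate either. Lpcat2 was at 8.26, 8.70 and 8.79 in untreated and 8.53, 8.73 and 9.04 in treated libraries, a difference of 0.18 with an interval from -0.19 to 0.55. Lpcat1 was at 9.24, 9.25 and 9.35 against 9.08, 9.38 and 9.28, a difference of -0.03 with an interval from -0.23 to 0.16. For both genes the treated libraries spread on both sides of untreated ones. Pla2g7, which breaks PAF down, ran from 8.72 to 9.37 in untreated and from 8.75 to 9.55 in treated libraries, with an interval of -0.49 to 0.50.

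The other 4 genes tested behaved alike in that their groups overlapped. Pla2g15 was at 10.84, 10.96 and 10.99 without and 10.97, 10.99 and 11.21 with RvD2, which gave the narrowest interval, -0.04 to 0.30. Mgll had the widest, -0.70 to 0.36, with untreated libraries at 6.38 to 7.11 and treated ones at 6.20 to 6.97. Intervals for Pla2g6 (-0.29 to 0.27) and Pla2g12a (-0.31 to 0.17) were between these. Every interval lies inside 2-fold in either direction, and differences within an interval were not excluded for that gene. The intervals were not adjusted for the number of genes tested. They do not give the smallest difference that these 6 libraries could detect, which was not tested.

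**Figure D4:**
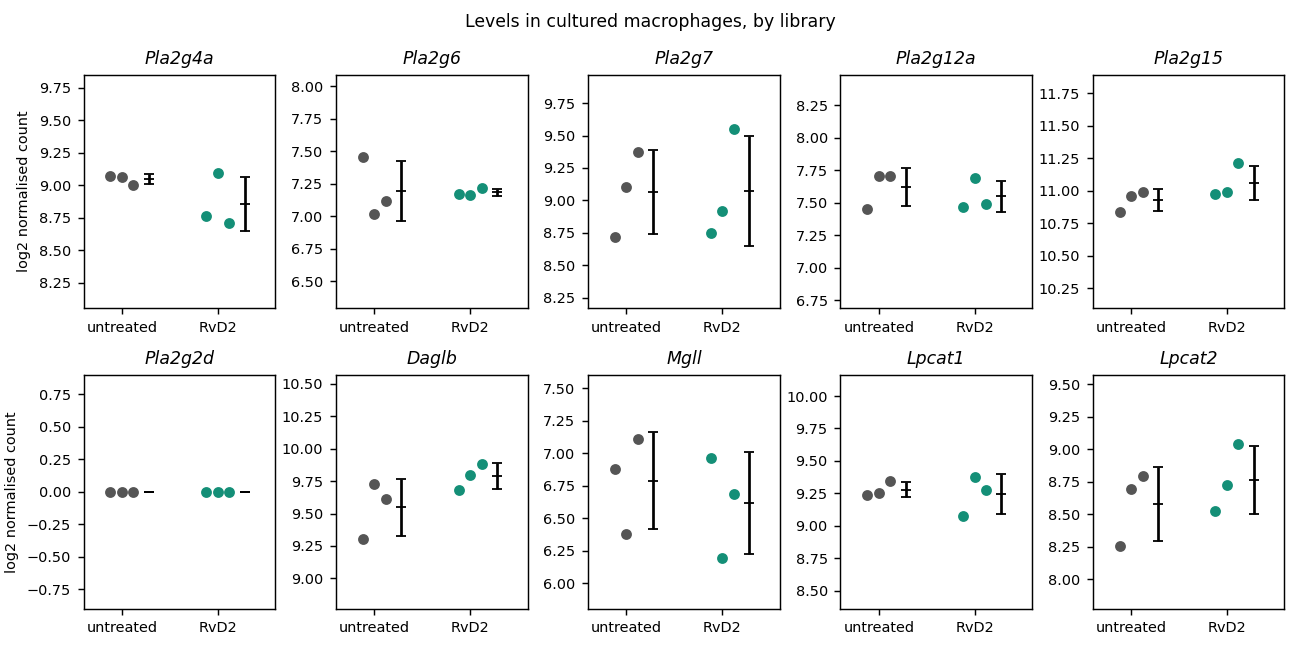
Log2 normalised count (vertical axis, one scale span per gene) of the 10 genes in each BMDM library, untreated in grey and RvD2 in green; the bars are mean ± SD (n = 3). Treated and untreated points overlap for each of the 9 genes above 0, and Pla2g2d lies at 0 in all 6 libraries.

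The wider PAF pathway was read from 12 further genes of its synthesis, breakdown and reception. In BMDM 2 of the 12 were called lower with RvD2 and none higher, where 1.06% of all genes were lower and 0.794% higher. By limma, 5 of the 12 had an unadjusted p under 0.05, against 15.6% of all genes. For 21% of all genes the treated and untreated libraries did not overlap. Ptafr, the PAF receptor, was at a log2 level of 11.16, 11.35 and 11.50 in untreated and 10.80, 10.90 and 10.83 in treated libraries, so that all treated values were below all untreated ones. The fall was -0.49 ± 0.09 (SE; limma, adjusted p = 0.0260). Pafah2, an intracellular PAF acetylhydrolase, was at 8.02, 8.07 and 8.22 against 7.72, 7.69 and 7.72, again without overlap, and fell by 0.40 (limma, adjusted p = 0.0497). Leaving out 1 library kept the differences at -0.41 to -0.58 for Ptafr and -0.34 to -0.44 for Pafah2. With 1 sample fewer, the Ptafr call was lost in every case but untreated 1 (adjusted p from 0.0188 to 0.115) and the Pafah2 call in all 6 cases (adjusted p from 0.0800 to 0.154).

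In muscle Pafah2 was called higher in Ly6Clow than in Ly6Chigh cells at day 2 (2.27-fold) and day 4 (2.10-fold). No PAF gene of the 12 was called by day, where 13.4% of all genes were in Ly6Chigh and 11.3% in Ly6Clow cells. The median log2 ratios by day were -0.14 in Ly6Chigh and -0.15 in Ly6Clow cells. In neutrophils 4 of the 12 were called higher and 1 lower than in macrophages, and with sums set equal 1 higher and 6 lower. Over all genes 30.7% were called higher and 28.9% lower, and with sums set equal 1684 and 6042 of 11998 genes. Ptafr was 7.49-fold higher there, at a level of 38346, and was the one still called higher with sums set equal (log2 ratio 1.84). Tmem189, which forms the vinyl ether bond of plasmalogens, was 4.11-fold higher, but with equal sums it was no longer called (0.98).

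The other 23 phospholipases A2 and intracellular lipases included 8 that reached a level of 50 in each macrophage comparison. None (0) was called between subsets at either day, where 11.4% (day 2) and 7.21% (day 4) of all genes were. Higher at day 4 were Pnpla7, a lysophospholipase of the patatin family (2.58-fold in Ly6Chigh and 2.36-fold in Ly6Clow cells), and, in Ly6Chigh cells, Pla2g16, a phospholipase and acyltransferase known from fat tissue (2.69-fold). Over all genes 9.67% were called higher at day 4 in Ly6Chigh and 8.08% in Ly6Clow cells. The median log2 ratio of day 4 to day 2 was 0.53 in Ly6Chigh and 0.45 in Ly6Clow cells. In BMDM none (0) of 10 was called by limma, and none (0) had an unadjusted p under 0.05, against 1.86% and 15.6% of all genes. Secreted Pla2g1b, Pla2g2a, Pla2g2c and Pla2g2f were listed at 0 in all 5 muscle groups.

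Of 11 regulators of cytosolic phospholipase A2, such as kinases and annexins, 3 were called lower at day 4 in Ly6Chigh cells and 2 in Ly6Clow cells. Over all genes 3.74% and 3.24% were called lower in these comparisons, and 9.67% and 8.08% higher. S100a10 and Anxa2, which form a complex known to bind the enzyme, were 4.58-fold and 3.19-fold lower in Ly6Chigh cells and 2.41-fold and 2.60-fold lower in Ly6Clow cells. Mknk1, a kinase downstream of MAP kinases, was 2.04-fold higher in Ly6Clow cells. Pla2g4a itself, as given above, was not called in either comparison. The median day ratio of the 11 was -0.32 in Ly6Chigh and -0.40 in Ly6Clow cells. None (0) of them was called in BMDM by limma, and 2 had an unadjusted p under 0.05, against 1.86% and 15.6% of all genes.

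Among 20 lysophospholipid acyltransferases and thioesterases, 3 were called higher and 2 lower at day 4 in Ly6Chigh cells, and 1 higher and 1 lower in Ly6Clow cells. Agpat3 was 2.18-fold higher in both subsets, and Gdpd1 and Gdpd5, glycerophosphodiesterases, were 2.66-fold and 2.57-fold higher in Ly6Chigh cells. Mboat1 was lower in both (3.26-fold in Ly6Chigh and 2.01-fold in Ly6Clow cells), and Agpat4 was 2.15-fold lower in Ly6Chigh cells. Gdpd1 and Gdpd5 were also higher in Ly6Clow than in Ly6Chigh cells at day 2 (4.10-fold and 4.28-fold) and day 4 (2.44-fold and 2.73-fold). Lpcat4 was 2.65-fold lower in Ly6Clow cells at day 4, and Agpat4 2.71-fold lower at day 2. Over all genes 5.9% (day 2) and 2.98% (day 4) were called higher in Ly6Clow cells, and 5.46% and 4.22% lower. The median day ratio of the list was -0.10 in Ly6Chigh and -0.14 in Ly6Clow cells. None (0) of 19 was called in BMDM by limma, and 5 had an unadjusted p under 0.05, against 1.86% and 15.6% of all genes.

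The enzymes that use the released arachidonate were described by 14 genes. Ptgs1, the constitutive cyclooxygenase, had log2 levels of 5.22 and 7.19 in Ly6Chigh cells at days 2 and 4, 6.37 and 8.74 in Ly6Clow cells, and 12.38 in neutrophils. It was called higher at day 4 in both subsets (3.30-fold and 4.72-fold), as Lpcat1 and Lpcat2 were. The others called higher by day were Hpgds and Ltc4s in Ly6Chigh cells and Ltc4s in Ly6Clow cells. Ptgs2, the inducible cyclooxygenase, was at 12.59 and 11.24 in Ly6Chigh cells, 10.91 and 10.58 in Ly6Clow cells, and 16.72 in neutrophils. Neutrophils and Ly6Chigh cells at day 2 were thus highest. Ptgs2 was called lower at day 4 in Ly6Chigh cells (log2 ratio -1.35 to -1.27 over the 7 settings tried). At day 2 it was called lower in Ly6Clow than in Ly6Chigh cells (-1.69 to -1.66). Of the 10, 3 were called higher and 1 lower in that comparison, where 5.9% and 5.46% of all genes were. Alox5, which starts leukotriene synthesis, was 35.1-fold higher in neutrophils (log2 ratio 4.09 with equal sums) and was not called in the macrophage comparisons. In BMDM 1 of the 12 tested was called, and 3 had an unadjusted p under 0.05 (limma), against 1.86% and 15.6% of all genes. The gene called, Hpgds, the prostaglandin D synthase, fell by 0.42 (limma, adjusted p = 0.0467). It went from 10.72, 10.61 and 10.71 to 10.08, 10.40 and 10.31, without overlap, which held for 21% of all genes. Leaving out 1 library kept the difference at -0.33 to -0.49, and the call was lost in every case but RvD2 1 (adjusted p from 0.0453 to 0.139).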

How the data were processed

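RNA sequencing libraries of sorted muscle leukocytes and of BMDM were prepared with Illumina's TruSeq reagents from poly-A RNA and read on a HiSeq instrument, per the labels' protocols. TopHat2 2.0.7, DESeq and the build mm10 were used, per the submitters' processing notes. The counting annotation and strand setting are not given in the sources used here. Log2 values were deposited by the authors: they gave 2 tables of log2 normalised counts, in which values under 1 are listed at 0; this was read from the values. The BMDM values come in 1 column for each of 6 libraries and the muscle values as 1 mean for each of 5 groups. In the muscle file 2 cells hold dates, neither for a member, and were treated as missing. Of the Ensembl identifiers, 95.3% are in GENCODE M21, which gave coordinates on mm10 and exon lengths.

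Groups follow the labels. They do not state that replicates are different animals or cultures; the p-values therefore reflect only how these samples spread, which may be technical. The cultured libraries were fitted with limma 3.58.1 (R 4.3.3), two-sided with a mean-variance trend, on genes whose normalised count averaged 10 or more, with Benjamini-Hochberg adjustment over all genes and a threshold of 0.05. The fit was run on simulated data whose added changes were all larger than any member difference in BMDM. That run therefore does not show whether differences of the members' size would be found. Muscle ratios used a pseudocount of 10, a 2-fold limit and a level of at least 50 in the higher group, so folds of low genes are compressed; the depth behind the muscle means is unknown. BMDM depth was estimated from the spacing of low values, of which 43.1 to 56.3% lie within 0.02 of a multiple of the step, and it describes counting error only, as reads lacking molecular identifiers cannot be counted as molecules. Tables and plots were made in Python 3.11.15 (numpy 2.4.6, pandas 2.3.3; matplotlib 3.10.9).

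The members, the 8 pathway lists and the 10 marker lists were chosen with earlier results of these data known. All members are named, of each pathway list at most 3 called genes per direction, and the 2 genes most alike to each member reaching a level of 50, of which 1 is not reported here. Alternatives were other pseudocounts, level limits, scalings, filters and variance models, a replicate block, and leaving out each BMDM library.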

Additional observations from a re-analysis of the deposited data

How the results depend on the processing

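Of 426 values of single members under alternative settings, 417 kept their sign, 418 their side of the limit and 410 both. Level limits, filters, variance models and the block leave a difference as it is. A pseudocount cannot turn the sign of a ratio between 2 groups. Much of the agreement in sign was therefore fixed in advance and is no measure of robustness. In muscle the calls of Lpcat1 and Lpcat2 by day, and of Pla2g7 by day in Ly6Clow cells, held in all 7 settings (log2 ratio of Pla2g7 1.01 to 1.03). The lower level limits could not change these calls, as the genes lie far above 50. With a pseudocount of 50 the genes called numbered 371 higher in Ly6Clow cells at day 2, 209 higher in them at day 4, 727 higher in Ly6Chigh cells at day 4 than at day 2, and 209 lower in Ly6Clow cells by day. A level limit of 20 made 1 member called between subsets at day 4, Pla2g2d. No limit gave 1 member and 777 genes lower in that comparison, 1871 genes higher by day in Ly6Chigh cells, and 5 members by day in Ly6Clow cells, the added ones being Pla2g2d, against a group listed at 0, and Mgll. In neutrophils, equal sums gave 1684 genes higher and 6042 lower and turned Pla2g7 to -0.0026, Pla2g4a to -0.69 and Pla2g6 to -0.23, and setting the median to 0 put it at 0.96, below the limit. Fewer genes passing a higher pseudocount and more passing a lower limit follow from the settings themselves; the cause of the other moves was not tested.

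In BMDM 121 genes were called higher and 162 lower; without the filter these were 53 and 84, and without the variance trend 22 and 27. Leaving out 1 library gave 32 to 140 higher and 47 to 150 lower. The sign of small member differences turned in 6 cases. Over the libraries left out, Pla2g6 ran from -0.0998 (without untreated 2) to 0.120 (without untreated 1), Pla2g7 from -0.231 (without RvD2 3) to 0.168 (without RvD2 1), Lpcat1 from -0.100 (without RvD2 2) to 0.0480 (without RvD2 1) and Mgll from -0.378 (without untreated 2) to 0.0377 (without RvD2 2). No member was called in any of the 14 settings, the lowest adjusted p being 0.0660 for Daglb. Ptafr stayed called in 7, Hpgds in 6 and Pafah2 in 5 of the 14, with adjusted p of 0.0021 to 0.121, 0.0125 to 0.144 and 0.0228 to 0.154.

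With the replicate number as a block, 492 genes were higher and 574 lower. Deviations of same-numbered libraries correlated at 0.29, 0.02 and 0.05, and those of other pairs at -0.26 to 0.19. Untreated 1 and 3 correlated best with their own number, and untreated 2 with RvD2 3 (0.19). These values do not settle whether the numbers pair the samples, and the main fit did not use the numbers. The block made no member called. In muscle no paired analysis was possible because each group is 1 column. The number of samples, 2 or 3 behind each muscle mean and 3 in each BMDM group, limits the precision of every value, and muscle differences have no replicate check.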

Other observations

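Neighbouring branches of the pathway were also read. Of 14 phospholipases C and D, which act on the head group, Plcb1 was 6.10-fold lower in Ly6Clow than in Ly6Chigh cells at day 2 and 6.89-fold lower in Ly6Chigh cells at day 4 than at day 2 (levels of 401 and 49.8). Pld4, an endosomal nuclease of the phospholipase D family, was 2.74-fold higher at day 4 in Ly6Clow cells, and Pld3, its relative, 2.23-fold higher in Ly6Clow than in Ly6Chigh cells at day 4. In neutrophils Pld4 was 63.4-fold lower than in macrophages, at a level of 111 (log2 ratio -6.97 with equal sums). Of 12 endocannabinoid and monoacylglycerol genes, Naaa, an amidase of acylethanolamides, was 2.51-fold lower in Ly6Clow cells at day 2 and 2.95-fold lower at day 4. Abhd12, a hydrolase that acts beside Mgll, was 2.11-fold higher in Ly6Clow cells at day 2, and Dagla, the paralogue of Daglb, was 2.82-fold lower at day 4 in Ly6Chigh cells. Gpr55, a lysophospholipid receptor, was 33.2-fold higher in neutrophils (log2 ratio 4.14 with equal sums). Of 11 genes for acyl-CoA synthesis and fatty acid binding, Fabp4 and Fabp5, carriers of fatty acids in the cytosol, were 2.29-fold and 2.50-fold higher in Ly6Clow cells at day 2, and 3.86-fold and 2.47-fold lower in them at day 4 than at day 2. None (0) of the genes of these 3 lists was called in BMDM by limma, against 1.86% of all genes. Those with an unadjusted p under 0.05 were 1 of 14 phospholipases C and D, 0 of 8 endocannabinoid genes and 2 of 10 acyl-CoA and binding genes. Over all genes that share was 15.6%.

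Markers of other cell types were summed in every group. T and NK cell markers stood at 51.4 and 21.1 in Ly6Chigh and Ly6Clow cells at day 2, 1107 and 53.3 at day 4, and 68.4 in neutrophils. Sums for B cells were 43.9, 80.4, 212, 170 and 26.5 in the same order, with Pax5 listed at 0 in all 4 macrophage groups. Those for eosinophils and mast cells were 35.3, 41.1, 119, 76.4 and 5600, for skeletal muscle 254, 309, 768, 1318 and 547, for endothelium 574, 473, 1206, 479 and 4738, and for erythroid cells and platelets 3386, 11888, 894, 4895 and 252. Fibroblast markers summed to 52163 to 77553 over the BMDM libraries, beside 104650 to 137346 for macrophage markers in the same libraries.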
